A study of Mus musculus with 2 samples.

Results

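The tumor necrosis factor (TNF) ligand and receptor superfamilies were examined in RNA sequencing of mouse cavernous endothelial cells (MCECs), primary cells grown out of the erectile tissue of the mouse penis. Genes were taken by symbol: Tnf, Lta, Ltb, Ltbr, Fas and Fasl, and every symbol that starts with Tnfsf or Tnfrsf followed by a digit. This gave 37 of the 23183 gene symbols in the files, 15 ligands and 22 receptors. Levels are normalized FPKM, which is a level corrected for transcript length and library size, with the rows of a symbol, which stand for its transcripts, summed.

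Both libraries came from MCECs in high glucose (HG, 30 mM), and no library in normal glucose was analysed here. HG+HBS received HEPES-buffered saline, the vehicle. HG+PC-NVs received 1 ug/mL of extracellular vesicle-mimetic nanovesicles, made by extruding cultured mouse cavernous pericytes. By the methods of the study, RNA was taken after 72 hours of glucose and 24 hours of PC-NVs, whereas the labels give 5 days of glucose. The study used male C57BL/6J mice, 8 weeks of age where an age is stated, and the cells grew in M199 with 20% serum, heparin and VEGF. For its glucose experiments in culture, the methods describe 24 hours without serum before the glucose exposure. There was 1 library per condition, so differences have no replicate check, and all intervals below cover counting error only. Where a pair of values is given, HG+HBS comes first. The depth, estimated from the lowest values, was about 13330000 and 11600000 fragments.

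TNF superfamily ligands are mostly membrane-bound trimers that can be cut from the cell surface, and they act on receptors of neighbouring cells. Some receptors carry a death domain and can start apoptosis or necroptosis. Others bind TRAF adaptors and turn on NF-kB and MAP kinases, and a few are decoys that catch a ligand without signalling. In vessels, TNF is known for making endothelial cells express adhesion molecules and chemokines.

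The cell type label was checked against marker genes before any result was drawn. Of 12 endothelial markers, 4 reached 1 FPKM with HBS and 3 with PC-NVs, and their summed level was 35.5 and 28.7 FPKM. The highest were Esam at 17.4 and 11.7 FPKM, Egfl7 at 9.48 and 8.58 FPKM and Cdh5 at 5.05 and 5.73 FPKM. Pecam1, the gene of CD31, stood at 1.05 and 0.938 FPKM, Kdr at 0.518 and 0.438 FPKM, and Vwf at 0.158 and 0.128 FPKM. The 8 fibroblast markers all reached 1 FPKM in both libraries and summed to 2004 and 2326 FPKM. Of these, 1 had a ratio above 0, Dcn at 623 and 1283 FPKM, and the median log2 ratio was -0.28. Of 10 pericyte and smooth muscle markers, 9 and 7 reached 1 FPKM, with sums of 117.4 and 92.8 FPKM. Pericyte markers went both ways. Rgs5 (1.69 and 7.23 FPKM) and Kcnj8 (7.98 and 20.4 FPKM) were more than 2-fold higher with PC-NVs. Cspg4, the gene of NG2 (20.4 and 12.2 FPKM), and Pdgfrb (38.4 and 33.7 FPKM) were lower by less than 2-fold. The smooth muscle genes Acta2 (27.6 and 8.02 FPKM) and Tagln (17.3 and 7.34 FPKM) were more than 2-fold lower. Of the 8 markers on this list with a mean of at least 1 FPKM, 3 had a ratio above 0, and the median log2 ratio was -0.22. The 10 macrophage and other myeloid markers also all reached 1 FPKM and summed to 354.6 and 607.0 FPKM. Most of the difference between these sums was Cd14, at 36.6 and 252 FPKM. Of the 10, 7 had a ratio above 0, as did 5730 of all 11828 genes with a mean of at least 1 FPKM. The median log2 ratio of the 10 was 0.18. The cells are therefore called MCECs only as the label does. No lymphocyte marker reached 1 FPKM among the 9 listed (sums 0.611 and 0.482 FPKM), and Cd3e, Cd8a, Ms4a1, Nkg7 and Klrb1c were listed at 0 in both libraries. Of 5 neutrophil markers listed, 0 and 1 reached 1 FPKM, and their sum was 0.503 and 6.58 FPKM. Almost all of that difference was S100a9, at 0.00323 and 5.96 FPKM. Csf3r had 0.141 and 0.235 FPKM, Cxcr2 had 0.359 and 0.391 FPKM, and Mpo was at 0 in both libraries. In bulk RNA, more cells of a type and more RNA per cell cannot be told apart.

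The 4 genes that the results turn on are Tnfsf11, Tnfrsf9, Fas and Tnf, and the 250 bases before their start sites are shown because these members were higher together in HG+PC-NVs. The sequences are RefSeq promoters on GRCm38.p6, 5′ to 3′ on the strand of the gene. They lie at chr14:78308044-78308293 (minus strand) for Tnfsf11, chr17:35202008-35202257 (minus strand) for Tnf, chr19:34290409-34290658 (plus strand) for Fas and chr4:150927749-150927998 (plus strand) for the second of 2 start sites of Tnfrsf9. Capitals mark matches, on either strand, to an NF-kB consensus motif, to the AP-1 motif TGANTCA or to the TATA box TATAAA.
Tnfsf11: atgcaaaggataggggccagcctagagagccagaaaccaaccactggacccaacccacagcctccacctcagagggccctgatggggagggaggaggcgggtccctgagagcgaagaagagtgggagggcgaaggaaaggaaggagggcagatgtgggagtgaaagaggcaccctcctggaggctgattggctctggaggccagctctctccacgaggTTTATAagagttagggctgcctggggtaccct
Tnf: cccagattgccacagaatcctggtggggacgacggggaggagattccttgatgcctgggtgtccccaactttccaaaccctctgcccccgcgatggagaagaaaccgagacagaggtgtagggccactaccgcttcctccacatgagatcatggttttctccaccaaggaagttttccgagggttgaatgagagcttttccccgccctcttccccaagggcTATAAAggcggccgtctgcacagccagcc
Fas: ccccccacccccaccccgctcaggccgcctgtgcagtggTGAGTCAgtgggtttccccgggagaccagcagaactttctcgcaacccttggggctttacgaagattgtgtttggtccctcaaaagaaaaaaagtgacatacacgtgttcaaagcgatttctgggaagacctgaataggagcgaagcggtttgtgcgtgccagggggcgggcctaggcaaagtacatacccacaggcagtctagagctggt
Tnfrsf9 (second start): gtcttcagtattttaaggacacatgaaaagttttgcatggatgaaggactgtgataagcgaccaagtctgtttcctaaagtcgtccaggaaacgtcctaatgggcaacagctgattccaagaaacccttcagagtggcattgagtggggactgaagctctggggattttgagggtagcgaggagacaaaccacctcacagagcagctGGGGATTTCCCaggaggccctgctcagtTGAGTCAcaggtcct

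The capitals are letter matches and not shown to be sites of binding. In Tnf the match is the TATA box, from -29 to -24 relative to the start. In Tnfsf11 it is the TATA box on the other strand, from -32 to -27. Fas holds AP-1 letters from -211 to -205. The second start of Tnfrsf9 holds 2 overlapping NF-kB matches, from -43 to -34 and from -42 to -33, and AP-1 letters from -15 to -9. The other start of Tnfrsf9, with bases 150919905 to 150920154 before it, holds none of these motifs. The deposited rows were not tied to either start. Of 32851 mouse promoters of the same length, 3.90% held the NF-kB motif, 6.75% AP-1 and 12.4% the TATA box. Among 34 promoters of the 30 members found in the table, 3 held the NF-kB motif (Ltb, Tnfrsf8 and Tnfrsf9), 6 AP-1 and 6 the TATA box.

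Of the 37 genes, 20 had a mean of at least 1 FPKM over both libraries and were compared, 6 ligands and 14 receptors. A gene was called when the log2 ratio of HG+PC-NVs over HG+HBS, computed on FPKM + 1, was at least 1 or at most -1. By this rule 4 were higher in HG+PC-NVs (20.0%), against 2.47% of all 11828 genes compared, and 0 were lower, against 0.829%. At the 4-fold threshold 2 of the 20 were higher, Tnfsf11 and Tnfrsf9, against 0.634% of all genes. The other 16 lay between log2 ratios of -0.59 and 0.75. Both directions occurred among the 20, with 14 ratios above 0 and 6 below. Of all 11828 genes compared, 5730 had a ratio above 0. The median was 0.24 over the receptors and 0.18 over the ligands, and -0.01 over all genes compared. Tnf reached the mean of 1 FPKM only through its level in HG+PC-NVs. Its presence in the count of called genes, among the ratios above 0 and in the ligand median therefore depends on the difference itself. With Tnf left out, the middle one of the ligands compared is Tnfsf9, with a log2 ratio of 0.02.

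**Figure D1:**
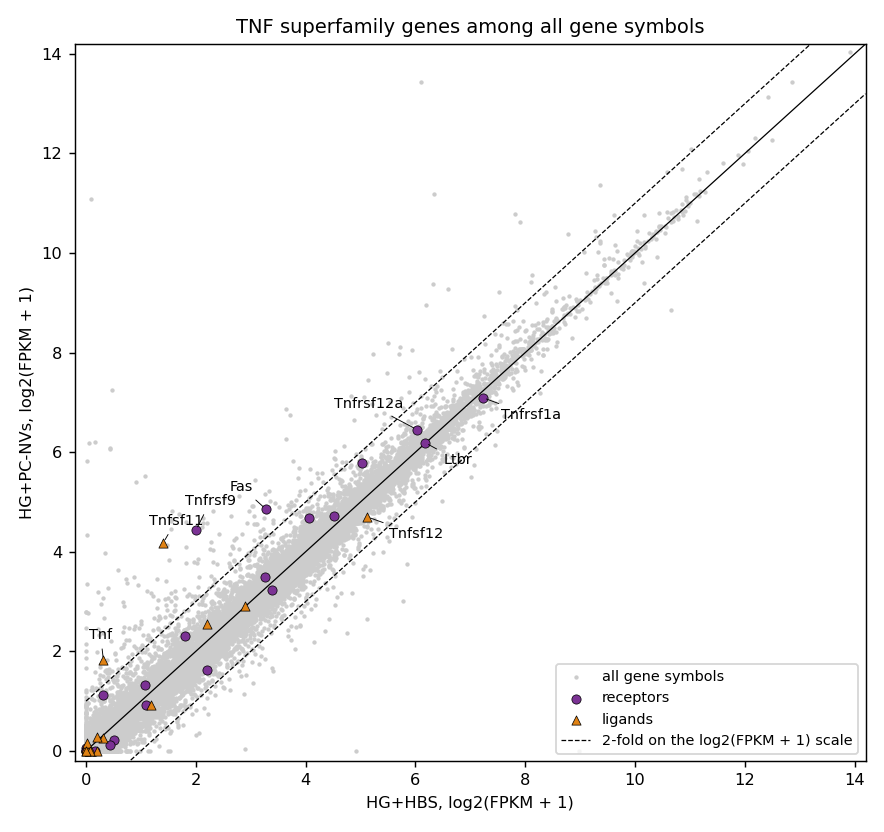
Level of each gene symbol in HG+PC-NVs (y axis) against HG+HBS (x axis), both as log2(FPKM + 1), with all symbols in grey, receptors as circles and ligands as triangles. Tnfsf11, Tnfrsf9, Fas and Tnf lie above the upper 2-fold line, and no superfamily gene lies below the lower one.

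Myeloid markers differed between the libraries as well. Of the 10 on the list, 4 were higher in HG+PC-NVs, against 2.47% of all genes compared. They were Cd14 at 36.6 and 252 FPKM, Adgre1 at 7.44 and 42.5 FPKM, Aif1 at 2.93 and 12.9 FPKM and Fcer1g at 18.8 and 41.1 FPKM. The defining markers Ptprc, at 1.44 and 1.68 FPKM, and Csf1r, at 8.39 and 6.20 FPKM, were within 2-fold, as was Lyz2 at 212 and 193 FPKM. Macrophages are a known source of Tnf, and the part of these cells, or of the other cell types whose markers differed, in the levels of Tnf, Tnfrsf9, Fas and Tnfsf11 was not tested. A further difference between the libraries lay in the lowest values. No symbol was above 0 in HG+PC-NVs alone, whereas 1612 were above 0 in HG+HBS alone, so a listed 0 in HG+PC-NVs is not read as a loss.

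Among the ligands, Tnfsf11 differed most. It encodes RANKL, the ligand known for driving the formation of osteoclasts and made in bone by stromal cells. Its level was 1.65 FPKM with HBS and 17.1 FPKM with PC-NVs, or about 49.1 and 444 fragments. That is a 10.4-fold difference in FPKM (95% counting interval 7.74 to 14.3) and a log2 ratio of 2.77, the 31st highest of the 11828. All of it came from a single row of the files. Tnfsf11 lies on chromosome 14 of GRCm38 from 78277445 to 78308043 on the minus strand, and no other annotated gene overlaps it.

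Tnf, the founding cytokine of the family, stood at 0.245 FPKM with HBS and 2.52 FPKM with PC-NVs. These levels rest on about 5.05 and 45.4 fragments, and the ratio of FPKM was 10.3 with a wide counting interval of 4.12 to 33.4. On the FPKM + 1 scale the log2 ratio was 1.5. The files give Tnf 2 rows, and they did not move together. The first went from 0.00309 to 2.52 FPKM, and the second from 0.242 FPKM to 0, so the signal of each library sat almost wholly on a different row. Tnf lies on chromosome 17 from 35199381 to 35202007, in a cluster with the lymphotoxin genes. Lta, 1158 bp away, had 0.0576 FPKM with HBS and 0 with PC-NVs, and Ltb, 3061 bp away, had 0.152 FPKM and 0. Both lymphotoxins were at or below 3 estimated fragments in both libraries, the floor used here, so neither was detectable at this depth.

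The most abundant ligand in both libraries was Tnfsf12, which encodes TWEAK, a ligand of Fn14. It had 33.7 FPKM with HBS and 25.02 FPKM with PC-NVs, with a log2 ratio of -0.42. Tnfsf9, the ligand of the co-stimulatory receptor CD137, barely differed, at 6.397 and 6.497 FPKM. Tnfsf13 encodes APRIL, a B cell survival factor, and had 3.63 and 4.89 FPKM. Its 2 rows went in opposite directions, the smaller from 0.985 to 0.0477 FPKM and the larger from 2.65 to 4.84 FPKM. The counting interval of its ratio of FPKM, 0.966 to 1.895, included no difference. Tnfsfm13, a protein-coding gene at 3.20 and 3.07 FPKM, overlaps Tnfsf12 and Tnfsf13 on the same strand, and its part in their levels was not tested. Tnfsf13b, which encodes BAFF, another B cell survival factor, had 1.27 and 0.902 FPKM, and its counting interval included no difference.

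The make-up of the ligand transcripts differed between the libraries. Tnfsf12 took 70.9% of the summed ligand FPKM with HBS and 43.5% with PC-NVs. Tnfsf11 took 3.47% and 29.8%, and Tnf took 0.514% and 4.39%. The sum over the 15 ligands was 47.6 FPKM with HBS and 57.5 FPKM with PC-NVs.

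**Figure D2:**
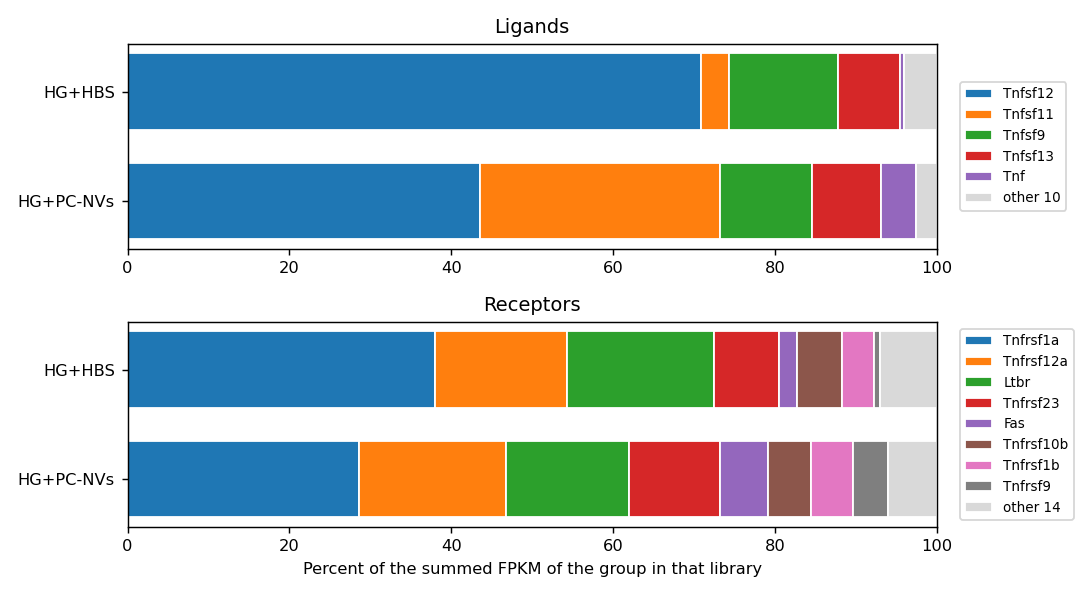
Percent of the summed FPKM of the 15 ligands (upper bars) and of the 22 receptors (lower bars) that each gene took in HG+HBS and HG+PC-NVs, with genes under 4% in both libraries pooled in grey. Tnfsf11 goes from 3.47% to 29.8% of the ligands, while Tnfrsf1a is the largest receptor segment in both libraries, at 38.0% and 28.5%.

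The remaining 9 ligands had means under 1 FPKM. Tnfsf10, which encodes the death ligand TRAIL, had 0.244 and 0.201 FPKM. Tnfsf18, the ligand of GITR, had 0.146 and 0.213 FPKM. Tnfsf15 passed the floor in HG+PC-NVs only, with 0.0123 and 0.113 FPKM. Fasl, the ligand of Fas, was listed at 0 in both libraries. Lta, Ltb, Tnfsf4, Tnfsf8 and Tnfsf14 were at or below the floor in both. Several of these are typical of lymphocytes, whose marker genes were also near 0 here.

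Of the death-domain receptors, Tnfrsf1a was the most abundant superfamily transcript in both libraries. It encodes TNFR1, through which soluble TNF signals in most cell types. Its level was 149.3 FPKM with HBS (counting interval 144.8 to 153.8) and 135.5 FPKM with PC-NVs (131.0 to 140.1), a log2 ratio of -0.14. Tnfrsf10b, the mouse TRAIL receptor, had 21.8 and 25.3 FPKM, and Tnfrsf21, which encodes DR6, had 9.46 and 8.395 FPKM. Tnfrsf25, the receptor of Tnfsf15, was listed at 0 in both.

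Fas was the death-domain receptor that passed the threshold. It triggers apoptosis when bound by Fas ligand. It had 8.67 FPKM with HBS and 28.0 FPKM with PC-NVs, a 3.23-fold difference in FPKM (counting interval 2.61 to 4.04) with a log2 ratio of 1.58. Both of its rows were higher in HG+PC-NVs, one going from 0.501 to 2.35 FPKM and the other from 8.17 to 25.6 FPKM. Fas lies on chromosome 19 from 34290666 to 34327772 on the plus strand.

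Of the TRAF-binding receptors, only Tnfrsf9 passed the threshold. It encodes CD137, a co-stimulatory receptor best known on activated T cells. It had 3.01 FPKM with HBS and 20.6 FPKM with PC-NVs, from about 84.1 and 502 fragments. The difference in FPKM was 6.86-fold (counting interval 5.44 to 8.76), and the log2 ratio was 2.43. Of its 3 rows, 1 was at or near 0 in both libraries, and the others went from 1.11 to 7.75 FPKM and from 1.89 to 12.9 FPKM. Tnfrsf9 lies on chromosome 4 from 150914562 to 150946102 on the plus strand and overlaps Camta1 on the other strand. The strand setting of the counts was not given in the sources used here. Camta1 had 1.64 and 2.02 FPKM, a log2 ratio of 0.19, and its part in the level of Tnfrsf9 was not tested. Of the T cell markers, Cd3e and Cd8a were at 0 in both libraries, Cd3d had 0.0604 FPKM and 0, and Cd4, which macrophages can also express, had 0.3995 and 0.412 FPKM.

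The abundant TRAF-binding receptors differed less. Ltbr, the lymphotoxin beta receptor, had 71.5 and 71.9 FPKM. Tnfrsf12a encodes Fn14, the TWEAK receptor, and had 64.3 FPKM with HBS and 86.6 FPKM with PC-NVs, a log2 ratio of 0.42. Tnfrsf12a and Ltbr were neighbours in the order of levels. In HG+HBS their counting intervals overlapped, at 59.5 to 69.2 FPKM for Tnfrsf12a and 68.4 to 74.7 FPKM for Ltbr. In HG+PC-NVs they did not, at 80.8 to 92.8 FPKM and 68.6 to 75.4 FPKM. Tnfrsf1b encodes TNFR2, which responds mainly to membrane-bound TNF, and had 15.6 and 24.6 FPKM, a log2 ratio of 0.62.

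Lower in level were Tnfrsf14, Tnfrsf18 and Tnfrsf11a. Tnfrsf14, which encodes the LIGHT receptor HVEM, had the lowest ratio of the 20 genes. It stood at 3.62 FPKM with HBS and 2.07 FPKM with PC-NVs, a log2 ratio of -0.59, with a ratio of FPKM of 0.572 (counting interval 0.330 to 0.935). Tnfrsf18, which encodes GITR, had 1.12 and 1.49 FPKM, and its rows swapped: one went from 0.359 to 1.49 FPKM and the other from 0.757 FPKM to 0. Tnfrsf11a encodes RANK, the receptor of RANKL, and had 1.13 and 0.889 FPKM with a counting interval that included no difference. Tnfrsf19 had 0.426 and 0.165 FPKM. Tnfrsf4, which encodes OX40, had 0.356 and 0.0829 FPKM and passed the floor in HG+HBS only. Tnfrsf8, Tnfrsf13b, Tnfrsf13c and Tnfrsf17 were at or below the floor in both libraries.

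The decoy receptors and the genes beside them on chromosome 7 had ratios above 0 without passing the threshold. Tnfrsf11b encodes osteoprotegerin, a soluble decoy that binds RANKL. It had 0.235 FPKM with HBS and 1.19 FPKM with PC-NVs, from about 8.83 and 38.8 fragments. The ratio of FPKM was 5.04 (counting interval 2.37 to 11.7), but on the FPKM + 1 scale the log2 ratio was 0.82 and the mean stayed under 1 FPKM, so it was outside the 20 genes compared. Tnfrsf22 and Tnfrsf23, decoy receptors for TRAIL in the mouse, had 8.55 and 10.3 FPKM and 31.6 and 53.7 FPKM. The log2 ratio of Tnfrsf23 was 0.75, the highest of the genes inside the threshold. Tnfrsf26, beside them, had 2.48 and 3.95 FPKM. Tnfrsf22 and Tnfrsf23 are close paralogs that could share reads, and an antisense gene overlaps all 3 loci, so their split is uncertain.

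**Figure D3:**
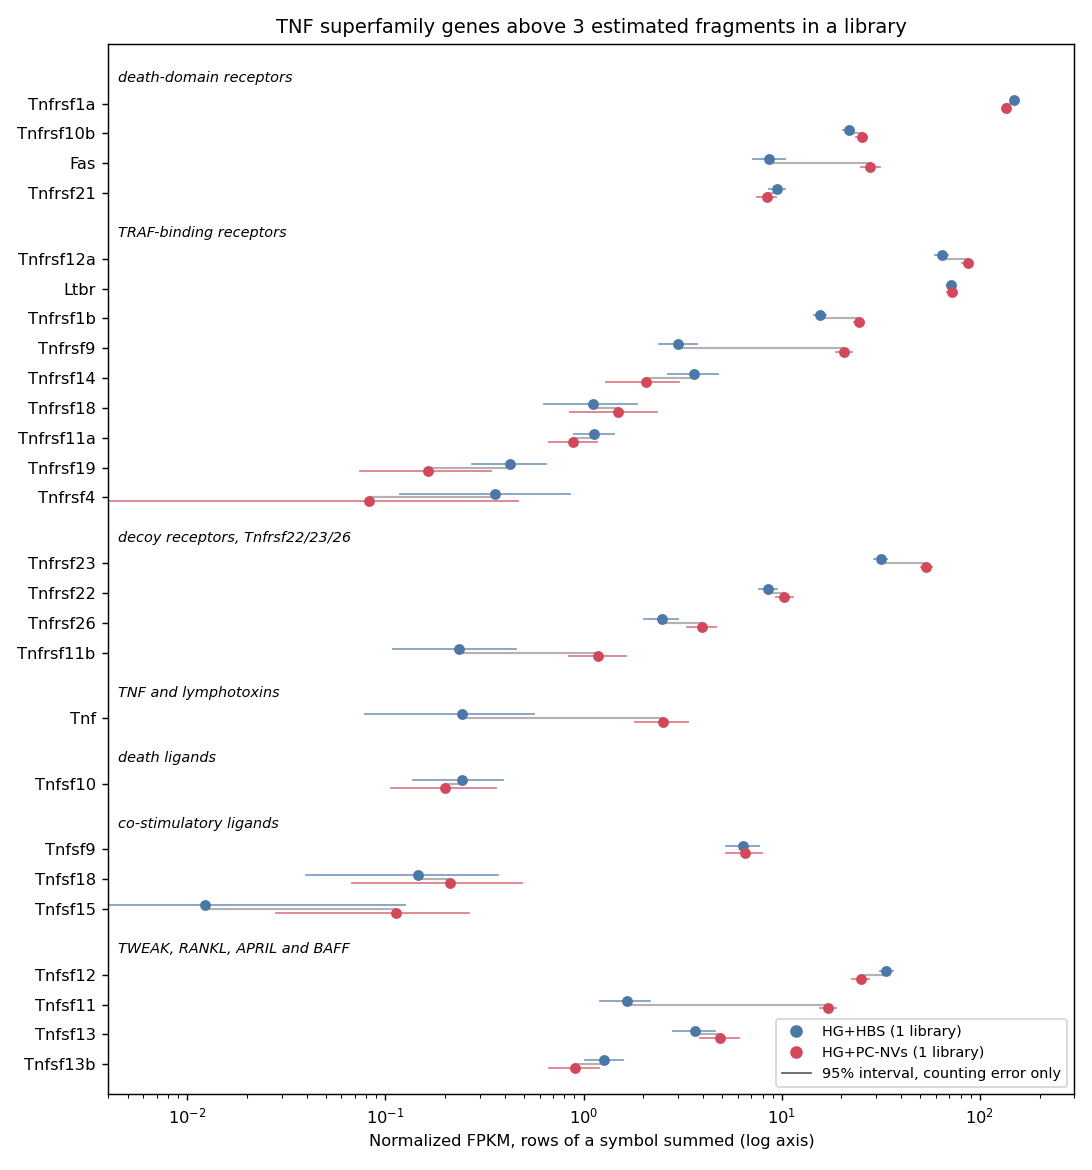
Normalized FPKM of the 26 superfamily genes above 3 estimated fragments in at least one library (log x axis), by role, with a blue point for HG+HBS and a red point for HG+PC-NVs, each from 1 library. Thin bars are 95% intervals for counting error only, and bars that meet the left edge go on beyond it. Tnfsf11, Tnfrsf9, Fas, Tnf and Tnfrsf11b have bars that do not overlap and sit well to the right in HG+PC-NVs. Bars lie apart by less for further genes, among them Tnfrsf23 and Tnfrsf1b to the right and Tnfsf12 and Tnfrsf1a to the left. Tnfrsf1a, Ltbr and Tnfrsf12a are the 3 highest in both libraries.

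**Figure D4:**
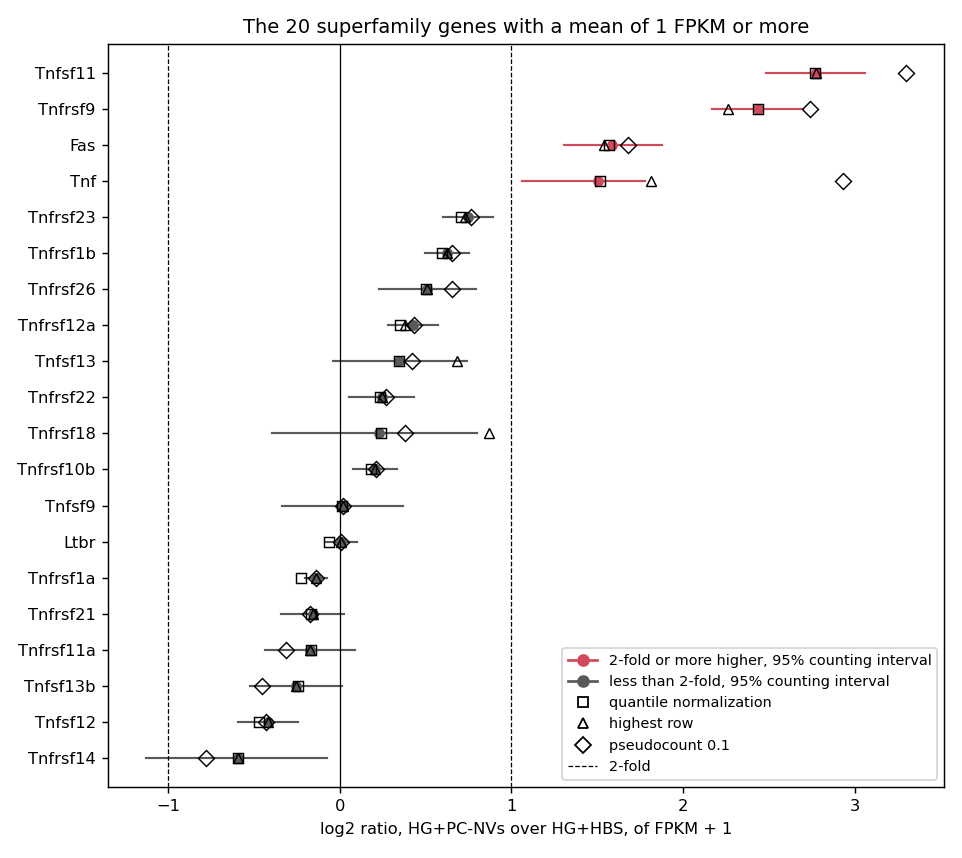
The log2 ratio of HG+PC-NVs over HG+HBS on the FPKM + 1 scale (x axis) for the 20 genes compared, with 95% counting intervals as bars and open symbols for 3 other ways of processing the values. The 4 genes in red stay to the right of the 2-fold line under each of these. In the reported setting (filled points) the other 16 lie between -0.59 and 0.75, and some open symbols lie outside that range.

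Ligands and receptors were then read as pairs, over 25 known pairings of the superfamily. Both partners reached 1 FPKM in 3 pairs in HG+HBS and in 5 in HG+PC-NVs, and 2 pairs did so in both libraries. Those 2 were Tnfsf12 with Tnfrsf12a and Tnfsf9 with Tnfrsf9. In HG+PC-NVs only, the pairs were Tnf with Tnfrsf1a, Tnf with Tnfrsf1b, and Tnfsf11 with its decoy Tnfrsf11b. Tnfsf11 with Tnfrsf11a was a pair in HG+HBS only. There Tnfrsf11a had 1.13 FPKM, against 0.889 FPKM in HG+PC-NVs, a difference whose counting interval included none. The level of Tnfsf11 relative to its receptor Tnfrsf11a was 1.46 with HBS and 19.3 with PC-NVs. Relative to its decoy Tnfrsf11b it was 7.02 and 14.4, where the level of Tnfrsf11b in HG+HBS rests on about 8.83 fragments. The counting intervals of the differences of both genes overlap, at 7.74 to 14.3-fold for Tnfsf11 and 2.37 to 11.7-fold for Tnfrsf11b. For Tnfsf9 over Tnfrsf9 the ratio was 2.13 with HBS and 0.315 with PC-NVs. Fas had no detectable ligand in either library. These are transcript levels in a mixed RNA, and they do not say which cells carry which partner.

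The 40 genes of the TNF receptor signalling list, from adaptors to NF-kB, were followed next. Of these, 39 reached a mean of 1 FPKM, with Traf1 below at 0.160 and 0.374 FPKM. By the same rule 6 were higher in HG+PC-NVs, against 2.47% of all genes compared, and 0 were lower, against 0.829%. The median log2 ratio of the 39 was 0.15, beside -0.01 over all genes compared. A ratio above 0 was found for 29 of the 39, and for 5730 of all 11828 genes. Tnfaip3 encodes A20, a ubiquitin-editing brake on NF-kB, and had 1.44 FPKM with HBS and 6.35 FPKM with PC-NVs, a log2 ratio of 1.59. Nfkbia, the inhibitor that holds NF-kB in the cytoplasm, had 5.68 and 18.4 FPKM, a log2 ratio of 1.54. Tnip1, a partner of A20, had 13.99 and 36.4 FPKM, a log2 ratio of 1.32. With only the highest row of each symbol its ratio was 0.55, below the threshold.

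The other 3 of these lay just past the threshold. Relb, a subunit of the non-canonical NF-kB pathway, had 11.2 and 24 FPKM with a log2 ratio of 1.04. Rhbdf2, which carries the sheddase ADAM17 to the cell surface, had 6.50 and 14.1 FPKM with a log2 ratio of 1.01. Birc3, which encodes the ubiquitin ligase cIAP2, had 12.5 and 26.3 FPKM with a log2 ratio of 1.01. Neither Rhbdf2 nor Birc3 passed the threshold after quantile normalization or upper-quartile scaling. Genes of high level on the list that were not called were Nfkb2 at 31.1 and 50.4 FPKM, Ripk3 at 37.8 and 44.1 FPKM, and Rela at 30.2 and 34.8 FPKM. The death-domain adaptors stayed close to each other across the libraries, Tradd at 16.1 and 14.3 FPKM and Fadd at 6.13 and 5.92 FPKM, and so did the kinase Ripk1 at 14.5 and 14.9 FPKM.

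**Figure D5:**
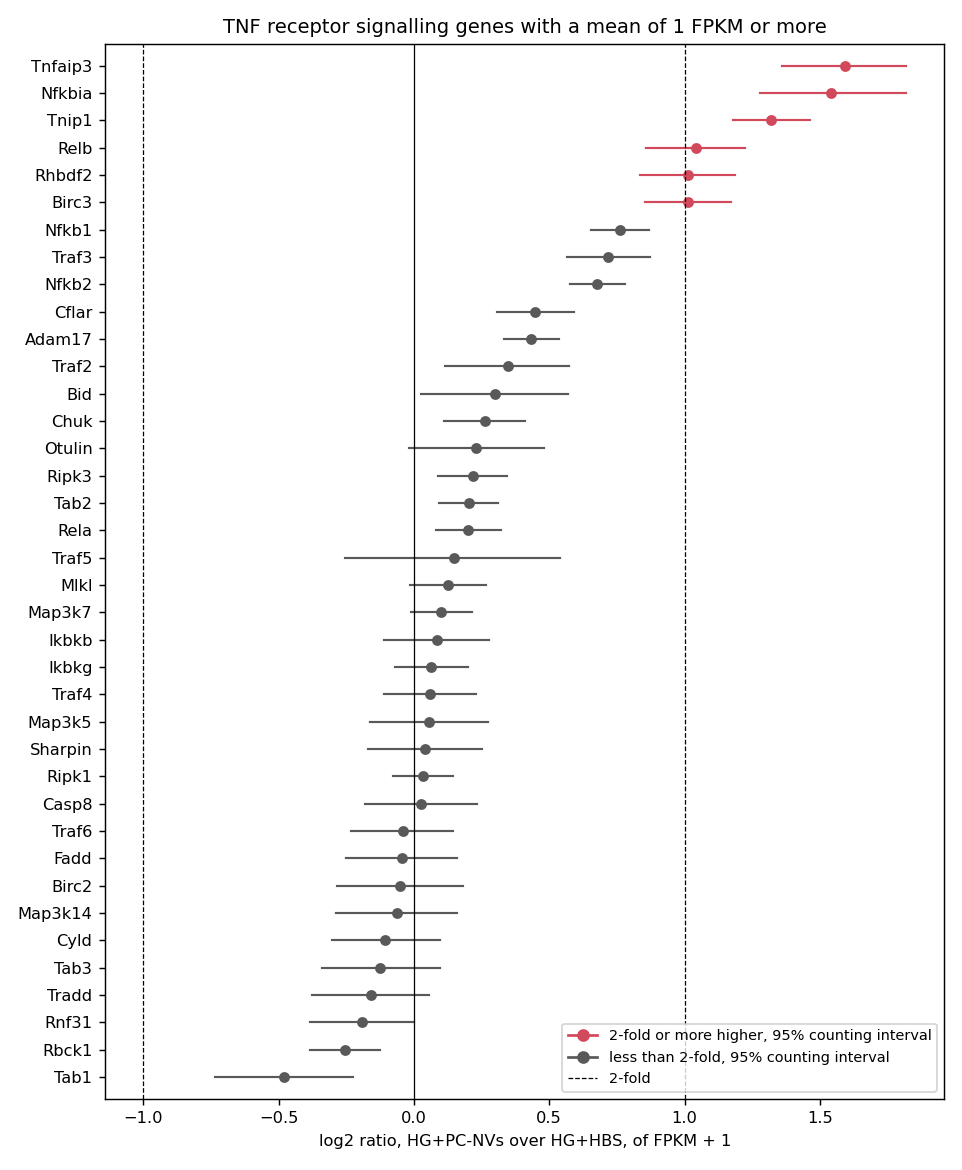
The log2 ratio of HG+PC-NVs over HG+HBS on the FPKM + 1 scale (x axis) for 38 of the 39 TNF receptor signalling genes with a mean of at least 1 FPKM, with 95% counting intervals as bars. Tnfaip3, Nfkbia, Tnip1, Relb, Rhbdf2 and Birc3 pass the 2-fold line, and the lowest ratio is -0.48 for Tab1.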

How the data were processed

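RNA of 2 libraries of MCECs, 1 per condition, was sequenced by the study as stranded, poly(A)-selected, paired-end 100 base reads. The authors trimmed the reads, mapped them with TopHat to mm10 (both named in the submitters' processing notes), computed FPKM with Cufflinks and normalized with edgeR. For that step the methods of the study name quantile normalization, so quantile normalization here was a further step on values already normalized. The summed FPKM of the deposited values still differed, at 521700 and 580700. Versions, annotation and strand setting are not given in the sources used here. The authors deposited log2(normalized FPKM + 1) for 33299 rows per library, a scale read from the values.

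Here each log2 value was turned back to FPKM and the rows of a symbol were summed. Genes with a mean of at least 1 FPKM were compared by the log2 ratio with a pseudocount of 1, and called at 2-fold. No p-value was computed. The worth of 1 fragment was estimated from low values of 2189 genes with a single transcript over 1500 nt of GENCODE M21, which places the libraries near 13330000 and 11600000 fragments. Fragments per gene were worked back from the normalized values with the median transcript length of a gene and are approximate. They gave exact Poisson intervals of levels, Clopper-Pearson intervals (95%) of ratios and a floor of 3 fragments. All 37 genes were found in GENCODE M21. RefSeq promoters (GRCm38.p6) were found for 30. Tnfrsf10b, Tnfsf9, Tnfrsf11b, Tnfrsf22, Tnfrsf26, Tnfsf12 and Tnfsf4 had no entry.

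Members and gene lists were chosen with earlier results of these data known. The text names members with a mean of at least 1 FPKM or past the threshold above the floor, the others by level, and from other lists the called genes and up to 4 of high level. Tradd, Fadd, Ripk1, Traf1 and Tab1 and single marker genes were named after their values were seen. The values of 1 gene of the signalling list are not reported here. The calculations were tested on simulated data. Alternatives covered normalization, pseudocount, filter, rows and fold threshold. Calculations used Python 3.11.15 with scipy 1.17.1, pandas 2.3.3 and numpy 2.4.6, and plots used matplotlib 3.10.9.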

Additional observations from a re-analysis of the deposited data

How the results depend on the processing

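The 4 superfamily genes called at 2-fold stayed 4 under quantile normalization, median centring, upper-quartile scaling, a pseudocount of 0.1, no filter on low values and the highest row of a symbol in place of the sum, and the same 4 genes were called in each of these. With a mean of at least 3 FPKM the count was 3, without Tnf, which has too low a mean. At 1.5-fold it was 7, with Tnfrsf23 and Tnfrsf1b added as higher and Tnfrsf14 as lower, and at 4-fold it was 2. Of all genes compared, 5.47% were higher and 3.64% lower at 1.5-fold, and 0.634% and 0.0592% at 4-fold. In the settings at 2-fold, the share higher ran from 1.72% with no filter to 3.07% with a pseudocount of 0.1. The share lower ran from 0.591% to 1.7% in the same settings. Of the signalling genes, 6 were called in the reported setting, 9 at 1.5-fold and 0 at 4-fold. Quantile normalization and upper-quartile scaling left 4 of them, without Birc3 and Rhbdf2. With the highest row the count was 6, with Nfkb2 in place of Tnip1. The median of the receptors stayed between 0.14 and 0.42 and that of the ligands between 0.01 and 0.35. For single genes, 122 of 130 alternative values stayed inside the counting interval of the gene and 8 fell outside it. Part of the 130 could hardly move. Median centring took the same median of -0.01 from every ratio, and for a symbol with 1 row the highest row is the sum. Of the 8, 4 came with the pseudocount of 0.1, 3 with the highest row and 1 with quantile normalization. No called gene changed direction, while the ratios of Ltbr and Tnfsf9, both near 0, changed sign under upper-quartile scaling, and that of Ltbr also under quantile normalization. The log2 ratio of Tnf, 1.5 as reported, was 2.93 with a pseudocount of 0.1 and 1.81 with the highest row. No paired analysis was possible because each condition has a single library, and for that reason no replicate could be left out. At this depth 11 of the 37 genes were at or below 3 estimated fragments in both libraries, and counting intervals say nothing of the spread between cultures.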

Other observations

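The superfamily also holds genes under other symbols, and none of these was called. Of 9 such genes, 3 had a mean of at least 1 FPKM. Eda2r, a receptor of ectodysplasin, had 18.9 FPKM with HBS and 14.4 FPKM with PC-NVs, and Relt, an orphan receptor, had 1.17 and 2.22 FPKM. Eda, the ectodysplasin ligand, had 1.56 and 1.09 FPKM. Cd40, a receptor known on antigen-presenting and endothelial cells, had 0.147 and 0.342 FPKM, and Cd40lg was listed at 0 in both libraries.

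Genes named TNF alpha induced protein, or for likeness to one of these, went both ways, and most were within 2-fold. Of 7 with a mean of at least 1 FPKM, 2 were higher by the 2-fold rule, Tnfaip3 and Tnfaip6, against 2.47% of all genes compared, and 0 were lower, against 0.829%. Tnfaip6, which encodes a hyaluronan-binding secreted protein, had 5.88 and 15.6 FPKM, a log2 ratio of 1.27. The ratio was above 0 in 5 of the 7, and in 5730 of all 11828 genes compared. Tnfaip3 was also counted among the called signalling genes above. Tnfaip2 had 55.6 and 70.5 FPKM, and Tnfaip1 had 28.7 and 28.0 FPKM, a log2 ratio of -0.04. Tnfaip8l2, named for likeness to Tnfaip8, had 1.99 and 0.949 FPKM, from about 29.7 and 12.4 fragments. Its log2 ratio was -0.62.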
